A study of Mus musculus with 2 samples.

Results

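Forkhead transcription factors are DNA-binding proteins that share a winged-helix forkhead domain, and their genes carry the symbol Fox followed by a subfamily letter and a number. The members were all probe sets of the array whose single gene symbol is Fox, 1 letter and a number, apart from 1 gene that the rule leaves out. They came to 36 of the 18193 genes named on the array, with 80 probe sets. The ovaries came from mice at 2 days of age, and 1 array per genotype was hybridised with a pool of equal RNA amounts from 8 animals. The control pool was Amhr2(+/+)-SmoM2 and the mutant pool Amhr2(cre/+)-SmoM2, so both pools carried SmoM2, a form of Smoothened that signals without hedgehog ligand. Only the mutant pool carried Cre, at 1 copy of Amhr2, where it acts in somatic cells of the gonad and reproductive tract. Activated SmoM2, Cre and the altered Amhr2 copy cannot be told apart in this comparison.

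The subfamilies have different known roles. FoxF, FoxC, FoxL and FoxD factors act in mesenchyme, and hedgehog signals from epithelia induce FoxF and FoxL factors there. FoxO factors are held out of the nucleus by Akt when the PI3K pathway is active, and in primordial oocytes Foxo3 holds back the start of follicle growth. Foxm1 drives genes of mitosis, Foxj1 the genes of motile cilia, and FoxA factors open chromatin in endodermal organs.

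Values are probe-set signals on the linear scale of the array. Probe sets were taken as measured if the brighter value reached 80.7, the median over both arrays. Log2 ratios are mutant over control with 22.2 added to both signals, which understates the change of dim genes, and a gene was represented by its brightest measured probe set. Each group held 1 array, which leaves no replicate check and no test, and the words higher and lower below describe these 2 arrays. The only spread that could be measured was that between probe sets of 1 gene, with an SD of 0.38 on the log2 ratio over 13386 probe sets of 5118 genes. As a readout of hedgehog signalling, Hhip was at least 39.8-fold higher in the mutant pool, and Ptch1 and Gli1 had log2 ratios of 1.51 and 1.19. All 10 oocyte markers and 9 of 10 granulosa markers were measured. The granulosa marker that was not measured, Amh, was dim in both pools, with signals of 9.1 in control and 9.8 in mutant RNA. Summed signals of the 10 stromal markers were 40534 in control and 74031 in mutant RNA, and those of the 10 oocyte markers were 44793 and 30650. In whole-ovary RNA, fewer cells of a type and less RNA per cell cannot be told apart.

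Of the 36 forkhead genes 17 were measured (47.2%), against 67.7% of all genes named on the array. Of the 17, 14 reached the minimum in both pools, Foxf1 and Foxc2 only in the mutant and Foxs1 only in the control pool. Of the 17, Foxf1 and Foxc1 were at least 1.5-fold higher in the mutant pool, and Foxj2 and Foxs1 at least 1.5-fold lower. Counts at 1.5-fold and 2-fold use the log2 ratio, also where the fold itself is only a bound, as for Foxs1. The background over the 12308 measured genes was 9.32% higher and 7.9% lower by that much, so both counts of 2 genes lay near it (11.8% each). At 2-fold, 2 forkhead genes were higher and 0 lower, against backgrounds of 3.21% and 1.4%. The median log2 ratio was -0.084 for the measured forkhead genes and -0.023 for all measured genes, and 10 of the 17 lay under 0 against 52.5% of all. The Hox genes, another family of developmental transcription factors, had a median of 0.40, where 6 of 17 passed 1.5-fold upward and 0 downward, and the Sox genes had 0.091, with 3 of 13 higher and 3 lower. Those differences between families were not tested.

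**Figure D1:**
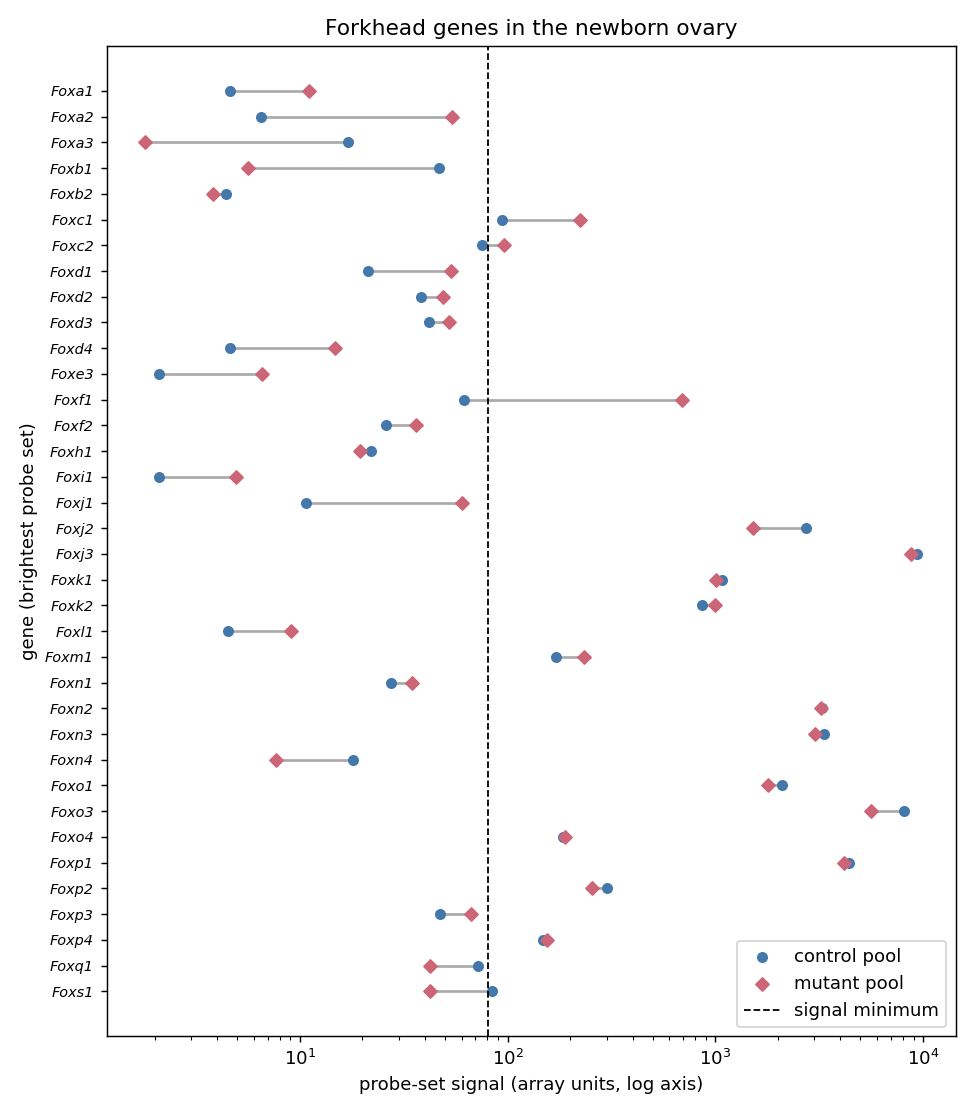
Signals of the brightest probe set of each of the 36 forkhead genes in the control pool (circles) and the mutant pool (diamonds), on a log axis in array units, with the signal minimum of 80.7 as a dashed line. The 17 measured genes have at least 1 point right of the line, and the widest gap on the log axis among them is that of Foxf1, at 62.0 and 695.

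Promoters show a feature that the choice of members did not use. RefSeq promoters of the GRCm38.p6 build, each 300 bases long, were found for 23 of the 36 genes (28 promoters), with no entry for Foxf1. Their median number of CpG dinucleotides was 22, against 7 over all 32851 promoters, and their median GC content was 62.8% against 52.7%. The 11 promoters of measured members had a median of 33 CpG dinucleotides and the 17 promoters of dim members 13. Foxp1 gave 3 of the 11, and Foxa2 gave 3 of the 17. The 2 groups overlapped, with 27 CpG dinucleotides for Foxf2, which was dim, and 6 for Foxn3, which was measured. The same split was not made over all genes, so the difference cannot be called particular to forkhead genes. A set of 3 promoters is shown to put side by side a member that was higher in the mutant pool (Foxc1), one that was lower (Foxj2) and one that was dim in both (Foxp3, 1 of its 2 listed promoters). Each runs 5′ to 3′ along the strand of the gene, and capitals mark the CpG dinucleotides. They lie at chr13:31806396-31806695 (plus strand), chr6:122819934-122820233 (plus strand) and chrX:7579426-7579725 (plus strand), and hold 32, 37 and 6 CpG dinucleotides. The Foxp3 promoter shown has the lowest GC content of the 28 (40.7%), so it does not stand for the dim members.
Foxc1: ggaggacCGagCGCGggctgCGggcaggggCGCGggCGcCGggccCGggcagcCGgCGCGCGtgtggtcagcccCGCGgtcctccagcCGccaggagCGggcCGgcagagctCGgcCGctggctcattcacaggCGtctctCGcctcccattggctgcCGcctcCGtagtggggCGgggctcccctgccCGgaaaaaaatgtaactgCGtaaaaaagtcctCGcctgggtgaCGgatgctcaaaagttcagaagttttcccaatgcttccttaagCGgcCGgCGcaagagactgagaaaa
Foxj2: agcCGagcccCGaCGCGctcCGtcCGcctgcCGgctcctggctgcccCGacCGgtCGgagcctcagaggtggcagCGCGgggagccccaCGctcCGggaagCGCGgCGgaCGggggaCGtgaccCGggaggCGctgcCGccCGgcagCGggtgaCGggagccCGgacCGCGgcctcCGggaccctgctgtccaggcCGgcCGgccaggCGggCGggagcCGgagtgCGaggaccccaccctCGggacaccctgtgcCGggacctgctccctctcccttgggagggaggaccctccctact
Foxp3: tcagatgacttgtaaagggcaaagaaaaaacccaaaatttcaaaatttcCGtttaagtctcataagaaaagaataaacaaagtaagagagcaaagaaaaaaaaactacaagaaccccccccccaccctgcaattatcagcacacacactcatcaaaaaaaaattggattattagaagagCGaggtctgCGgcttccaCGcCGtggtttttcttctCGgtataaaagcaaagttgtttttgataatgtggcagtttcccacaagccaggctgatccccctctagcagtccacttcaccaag
The core letters of the forkhead motif, GTAAACA, were searched on both strands (TGTTTAC on the other). They occurred in 1 of the 28 members' promoters, that of Foxa1, and in 3.65% of all promoters. The Gli motif GACCACCCA (TGGGTGGTC on the other strand), which does not overlap the forkhead letters, occurred in 0 of the 28 and in 0.253% of all promoters. No match says only that these letters are not in these windows.

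Among the mesenchymal factors, Foxf1 and Foxc1 were higher in the mutant pool. Foxf1, a factor of the mesenchyme around gut and lung, had a signal of 62.0 in control and 695 in mutant RNA. The control value lay under the signal minimum, so the difference is at least 8.61-fold. Its other probe set was dim in both pools, at 14.9 in control and 22.9 in mutant RNA, so that 1 of 2 probe sets carries the difference. Foxc1, a factor of mesenchyme, vessels and the eye, had a signal of 94.3 in control and 224 in mutant RNA, which is 2.38-fold higher. Its second probe set read 49.2 in control and 162 in mutant RNA, at least 2.01-fold higher. Both probe sets of Foxc1 thus gave the same direction, with log2 ratios of 1.08 and 1.37, both beyond the probe-set SD of 0.38. With the median of all values as pseudocount the first was 0.80, under 2-fold. The probe-set SD holds no variation between pools, so it cannot show whether the Foxc1 difference would recur in other pools.

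For the other mesenchymal members no such difference was measured, and most of them were dim in both pools. Foxc2, a factor of lymphatic and mesenchymal development, read 75.6 in control and 95.9 in mutant RNA, a log2 ratio of 0.27 that lies within the probe-set SD. Foxs1, known from pericytes and the neural crest, read 84.5 in control and 42.3 in mutant RNA. Its log2 ratio was -0.73, but with the mutant value under the minimum the bound is only at least 1.05-fold lower. All 7 pericyte markers were measured, with 2 at least 1.5-fold higher and 0 that much lower, against 9.32% and 7.9% of all measured genes. Their median log2 ratio was 0.21, with summed signals of 6609 in control and 8783 in mutant RNA. The part of pericytes in the Foxs1 value was not tested. Foxf2, Foxl1, Foxd1, Foxd2 and Foxq1 were dim in both pools. Their brightest probe sets read 26.1 and 36.3 (Foxf2), 4.5 and 9.1 (Foxl1), 21.3 and 53.6 (Foxd1), 38.3 and 48.8 (Foxd2), and 71.9 and 42.1 (Foxq1) in the control and mutant pools. No difference was measurable for these 5 genes at this signal.

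Most stromal markers were also higher in the mutant pool. Of the 10 stromal markers, 9 were at least 1.5-fold higher in the mutant pool and 0 that much lower, with a median log2 ratio of 0.96. Over all measured genes the shares were 9.32% and 7.9%. The list holds the hedgehog targets Gli1 and Ptch1, and it shares Pdgfra and Tcf21 with the list of mesenchymal factors given below. Pdgfra, the stromal receptor of platelet-derived growth factor, had 1.13 and Dcn, the gene of decorin, -0.037. Endothelial markers, for which Foxc1 and Foxc2 are also known, were measured for 9 of 10 genes with a median of 0.42, and 3 of the 9 were at least 1.5-fold higher by the log2 ratio, 2 by the fold or its bound. Their summed signals were 3225 in control and 4075 in mutant RNA. The part of either cell type in the forkhead values was not tested.

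Several mesenchymal forkhead genes sit next to each other in the genome. In the RefSeq order Foxf1, Mthfsd, Foxc2 and Foxl1 follow each other on chromosome 8, and Foxq1, Foxf2 and Foxc1 on chromosome 13. Within the first group Foxf1 had a log2 ratio of 3.09, while Mthfsd, a folate-binding gene, read 229.5 in control and 201 in mutant RNA (-0.17). The neighbour of Foxf1 on its other side is Fendrr, a long noncoding RNA transcribed away from the Foxf1 start. Its only named probe set read 20.7 in control and 267 in mutant RNA, at least 3.31-fold higher. The next protein-coding gene beyond Fendrr, Irf8, a factor of macrophages and dendritic cells, read 102 in control and 227 in mutant RNA (2.22-fold). A second Irf8 probe set was dim in both pools. Leukocyte markers were at least 1.5-fold higher for 4 of 7 measured genes, with summed signals of 5034 in control and 8277 in mutant RNA over the list, and their part in the Irf8 value was not tested. Irf8, Fendrr and Foxf1 thus had higher signals and Mthfsd differed by less than 1.5-fold. Foxc2 had a log2 ratio of 0.27, within the probe-set SD of 0.38, and a bound of at least 1.19-fold higher. Foxl1, dim in both pools, could not be judged.

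On chromosome 13 few neighbours of Foxc1 could be judged. Exoc2, an exocyst gene, had a log2 ratio of 0.038, and Foxq1, Foxf2 and Mylk4 were dim. Gmds, an enzyme of GDP-fucose synthesis that follows Foxc1, had -0.77 on its brightest probe set and 0.64 on the other, so its direction is not settled. Neighbouring genes were taken by position and were not in the lists of genes to be named.

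**Figure D2:**
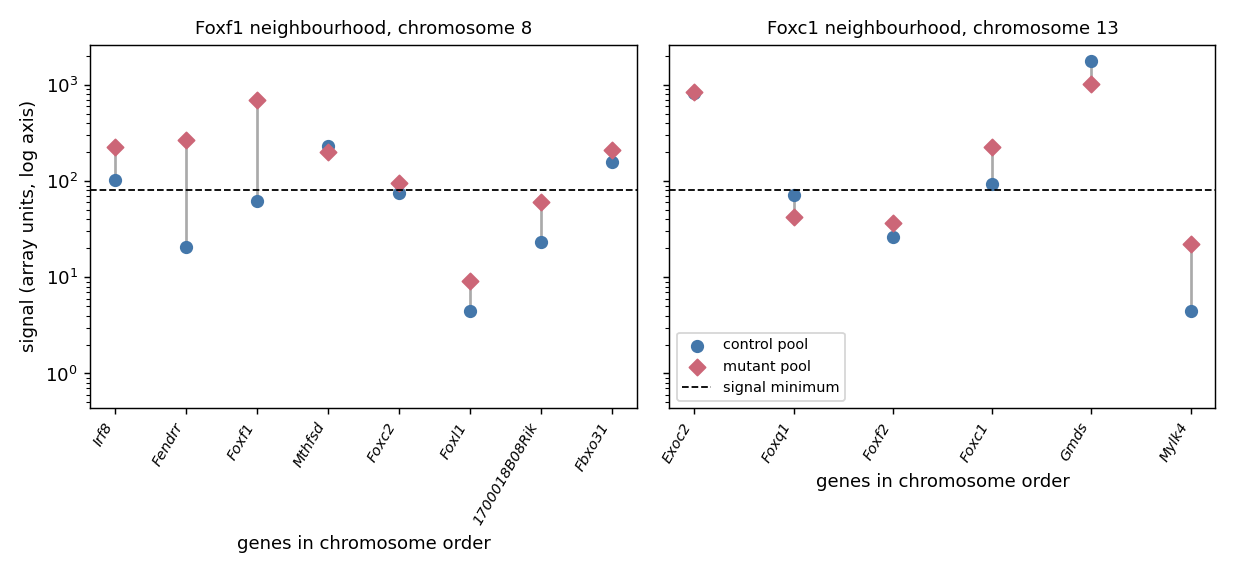
Signals of the genes around Foxf1 (left) and Foxc1 (right) in chromosome order, evenly spaced and without those that have no named probe set, for the control pool (circles) and the mutant pool (diamonds) on a log axis in array units, with the signal minimum of 80.7 as a dashed line. Fendrr and Foxf1 lie under the line in the control pool and above it in the mutant pool, and Foxl1, Foxf2 and Foxq1 stay under it in both.

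Genes known to act with hedgehog signals and FoxF factors in mesenchyme were higher as a group in the mutant pool. Signals were measurable for 13 of 16 listed genes, with 10 at least 1.5-fold higher by the log2 ratio, 8 by the fold or its bound, 0 that much lower and a median log2 ratio of 1.02. This list was drawn up with earlier values of some of its genes known, so it is no independent evidence of the direction. It also shares Pdgfra and Tcf21 with the stromal list. Sfrp2, a secreted Wnt inhibitor, had a log2 ratio of 1.62. Bmp5, a bone morphogenetic protein, was 2.69-fold higher, at 411 against 153. Wnt5a, a Wnt ligand of mesenchyme, was 2.27-fold higher, with its 3 probe sets between 0.73 and 1.53. Barx1, a homeobox gene of stomach mesenchyme, read 22.3 in control and 89.2 in mutant RNA, at least 1.11-fold higher. Of the 9 listed hedgehog targets 8 were measured, with 5 at least 1.5-fold higher, 0 lower and a median of 0.73. Mycn was the fourth by size after Hhip, Ptch1 and Gli1, at 0.81.

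FoxO members differed by less than 1.5-fold on their brightest probe sets. Foxo3 had a signal of 8128 in control and 5590.5 in mutant RNA on its brightest probe set, which is 1.45-fold lower (log2 ratio -0.54). Its second measured probe set read 2667 in control and 2364 in mutant RNA, only 1.13-fold lower. The remaining probe set was dim, at 29.5 and 36.7. With quantile normalization the first had a log2 ratio of -0.59, just past 1.5-fold, whereas the value of Foxo3 was -0.36 as the mean over its probe sets and -0.17 without probe sets of suffix s, x or a. The first difference exceeds the probe-set SD of 0.38 and the second does not. Foxo3 is abundant in oocytes, and all 10 oocyte markers lay under 0 on the log2 ratio (median -0.56). The log2 ratio of Foxo3 lay close to that median on its brightest probe set (-0.54) but not on the other measured one (-0.17). The part of oocyte number in the Foxo3 values was not tested. Foxo1, a FoxO factor of granulosa cells and vessels, read 2084 in control and 1800 in mutant RNA (-0.21). Its other measured probe sets, at 541 and 529 in control and 486 and 489 in mutant RNA, gave -0.15 and -0.11. The 3 probe sets thus gave one direction, and each difference lay within the probe-set SD. Granulosa markers had a median log2 ratio of -0.59, with 5 of 9 at least 1.5-fold lower and summed signals over the 10 listed genes of 22749.9 in control and 14470.4 in mutant RNA. The list holds Amhr2, the gene altered in the mutant pool. The part of granulosa cells in the Foxo1 values was not tested. Foxo4 read 184 in control and 189 in mutant RNA (0.034).

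Genes of the PI3K-Akt pathway, a list that holds FoxO genes and mTOR-branch genes too, lay on both sides of 0. Of 29 listed genes 25 were measured, 12 with log2 ratios above 0 and 13 under 0, and the median was -0.16. Without the FoxO genes, 11 lay above 0 and 11 under 0, with a median of -0.069. At least 1.5-fold higher were 2, Sgk1, a kinase that phosphorylates FoxO factors (1.69-fold), and Irs1, an insulin receptor adaptor (1.55-fold). The other adaptor, Irs2, read 90.5 in control and 5.3 in mutant RNA on its only probe set, at least 1.12-fold lower. Kitl and Kit, the ligand and receptor that feed PI3K signals to the oocyte, had log2 ratios of 0.18 and -0.53, and a second probe set of Kit gave 0.13.

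Genes known as FoxO targets lay on both sides of 0, more of them above it. Signals were measurable for 21 of 28 listed genes, 15 with log2 ratios above 0 and 6 under 0 (28.6%, against 52.5% of all measured genes). At least 1.5-fold higher were 5, and 2 were that much lower by the log2 ratio (1 by the fold or its bound). Over all measured genes these shares were 9.32% and 7.9%. The median was 0.28 against -0.023 over all genes, and the difference was not tested. Fbxo32, the muscle atrophy ubiquitin ligase, was 4.29-fold higher, at 637 against 149, and its second measured probe set had a log2 ratio of 0.62. Klf15, a zinc finger factor of fasting metabolism, read 44.0 in control and 175 in mutant RNA, at least 2.16-fold higher. Cited2, a transcription cofactor, was 1.67-fold higher on one probe set, while the other gave a log2 ratio of 0.30. Gadd45a, a growth arrest gene, was 1.64-fold lower (log2 ratio -0.66), while Irs2, also a listed target, has only the bound given above.

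FoxP members gave log2 ratios under 0 on most of their probe sets. Foxp1, a repressor of broad expression, read 4410 in control and 4158 in mutant RNA on its brightest probe set, a log2 ratio of -0.084. All 7 of its measured probe sets lay under 0, down to -0.75 on a probe set that read 450 in control and 258 in mutant RNA, and the mean was -0.38 ± 0.26 (SD between probe sets, n = 7). Probe sets of 1 gene share the same 2 RNA pools and are not replicates. Foxp2, best known from brain and lung, read 300.4 in control and 255 in mutant RNA (-0.22). Its other measured probe sets gave -0.19 and -0.95, the latter from 291 in control and 140 in mutant RNA. Foxp4 read 148 in control and 154 in mutant RNA (0.048), while 2 dimmer probe sets gave -0.29 and -0.66. Foxp3, the factor of regulatory T cells, was dim in both pools at 47.2 and 66.8. Of the 8 T cell markers 1 was measured, and Cd3e, Cd3d and Cd3g read between 1.9 and 36.6.

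FoxJ members included the member with the lowest log2 ratio. Foxj2, a factor of germ cells and other tissues, had a signal of 2723 in control and 1514 in mutant RNA, 1.80-fold lower (log2 ratio -0.84). Only 1 of its 2 probe sets was measured, and the other read 13.7 and 7.7. Foxj3 read 9345 in control and 8755 in mutant RNA (-0.094), and a dimmer probe set read 69.7 and 92.4. Foxj1, the factor of motile cilia, read 10.7 in control and 60.1 in mutant RNA, both under the signal minimum. Of the 18 listed symbols of cilia markers 16 had a named probe set. Of these 4 were measured, and 0 were at least 1.5-fold higher. Ccno, which is needed for multiciliated cells and is also known from oocytes, had a log2 ratio of -0.66.

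Foxm1, the factor of mitotic genes, was slightly brighter in the mutant pool. Its brightest probe set read 172 in control and 234 in mutant RNA (log2 ratio 0.40), and the next read 183 and 195 (0.079). Of the 20 listed mitotic genes 19 were measured, with 1 at least 1.5-fold higher, 1 lower and a median of 0.0016. Birc5, the gene of survivin, had -0.69 and Skp2, a ubiquitin ligase subunit, 0.60, although the 5 probe sets of Skp2 reached down to -0.62. Cenpa had 0.43 on its brightest probe set and -0.75 on the other. Tacc3 had -0.43 on its brightest probe set, and its 3 probe sets ran from -0.66 to 0.34.

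The measured FoxN and FoxK members differed little on their brightest probe sets. Foxn2 read 3248 in control and 3233 in mutant RNA (log2 ratio -0.0065). Foxn3, a repressor linked to cell cycle checkpoints, read 3333 and 3028 on its brightest probe set (-0.14). Its other measured probe sets were lower in the mutant pool, at 1719 in control and 1068 in mutant RNA, and at 242 and 159, which are 1.61-fold and 1.52-fold. The call for Foxn3 thus depends on the probe set. Foxk1, a factor of muscle progenitors and glycolysis, read 1081 in control and 1007 in mutant RNA (-0.10). Foxk2 read 861 in control and 1000.2 in mutant RNA (0.21), and its 4 measured probe sets fell on both sides of 0, from -0.35 to 0.21.

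**Figure D3:**
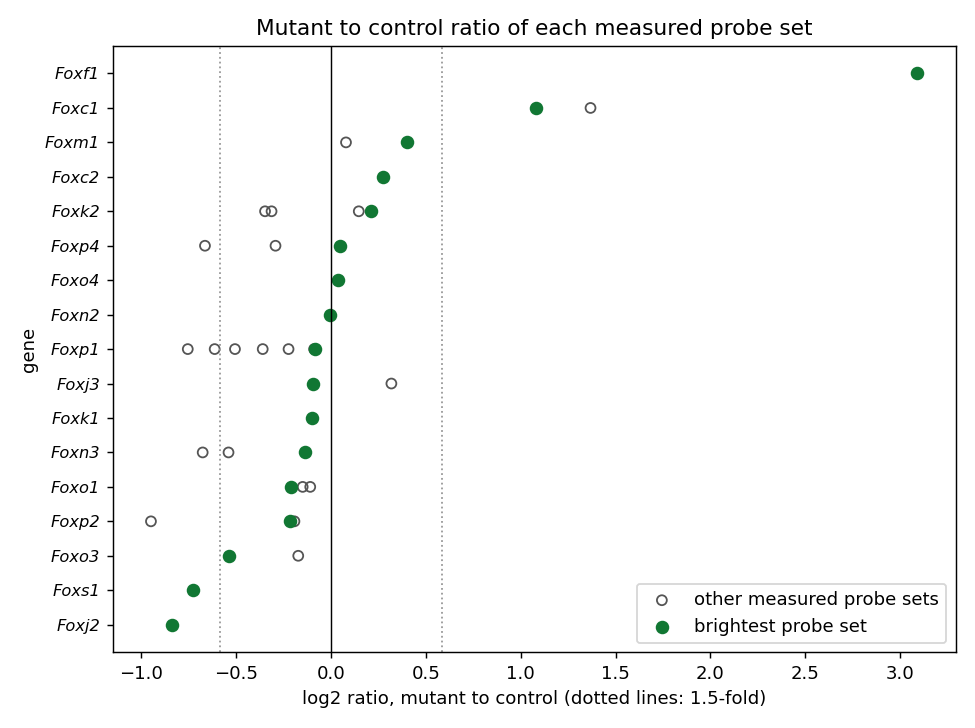
Log2 ratio of mutant to control for every measured probe set of the 17 measured forkhead genes, with the brightest probe set of each gene filled and the others open, and dotted lines at 1.5-fold. Foxf1 (3.09) and both probe sets of Foxc1 (1.08 and 1.37) lie right of the dotted line, and all 7 probe sets of Foxp1 lie left of 0.

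Probe sets of the same member were compared for direction. Of the 38 measured forkhead probe sets 27 had log2 ratios under 0 (71.1%), against 54.3% of all measured probe sets. With quantile normalization the shares were 70.3% and 52.3%, and with no signal minimum 44 of 80 (55%) against 53.0%. Probe sets of 1 gene are not independent, and Foxp1 alone gave 7 of the 27. Counted by gene, 10 of the 17 measured members lay under 0 (58.8%), near the 52.5% of all measured genes. Of the 10 members with at least 2 measured probe sets, 7 had all of them on one side of 0, against 51.1% of all such genes. Those on the lower side were Foxp1, Foxo1, Foxo3, Foxn3 and Foxp2, and those on the higher side Foxc1 and Foxm1. Of the 6 members with at least 3, 4 had all ratios under 0, against 19.3% of all such genes. With no signal minimum this was 3 of 11 members, against 14.9% of all such genes. In that setting 7 of 20 members with at least 2 probe sets had all of them on one side of 0. The SD between probe sets of a gene was 0.28 over the 31 probe sets of the 10 members, and 0.38 over all genes. The ratio of the 3′ to the 5′ control probe set for beta-actin stood at 8.48 in control against 10.5 in mutant RNA, and for Gapdh at 3.28 against 4.98. The part of RNA quality in the spread among probe sets was not tested.

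The other 14 dim members are best known from other tissues or cell types. These are Foxa1, Foxa2 and Foxa3 of endoderm, Foxb1, Foxb2, Foxd3, Foxd4, Foxe3 and Foxi1, mostly of the nervous system, eye and ear, Foxn1 of the thymus, Foxn4 of the retina, Foxh1 of early embryonic Nodal signalling, and Foxj1 and Foxp3, given above. All 25 probe sets of the 19 dim members read between 1.8 and 71.9, with a median of 12.2. The brightest probe set was brighter in the mutant pool for 13 of the 19, but no ratio is given because both values lay under the signal minimum. The largest gaps on the linear scale were those of Foxj1, Foxa2 (6.5 in control and 53.8 in mutant RNA) and Foxb1 (46.9 in control and 5.6 in mutant RNA). Liver markers, where FoxA factors act, gave 1 measured gene of 5, and Alb read 48.8 in control and 93.0 in mutant RNA.

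**Figure D4:**
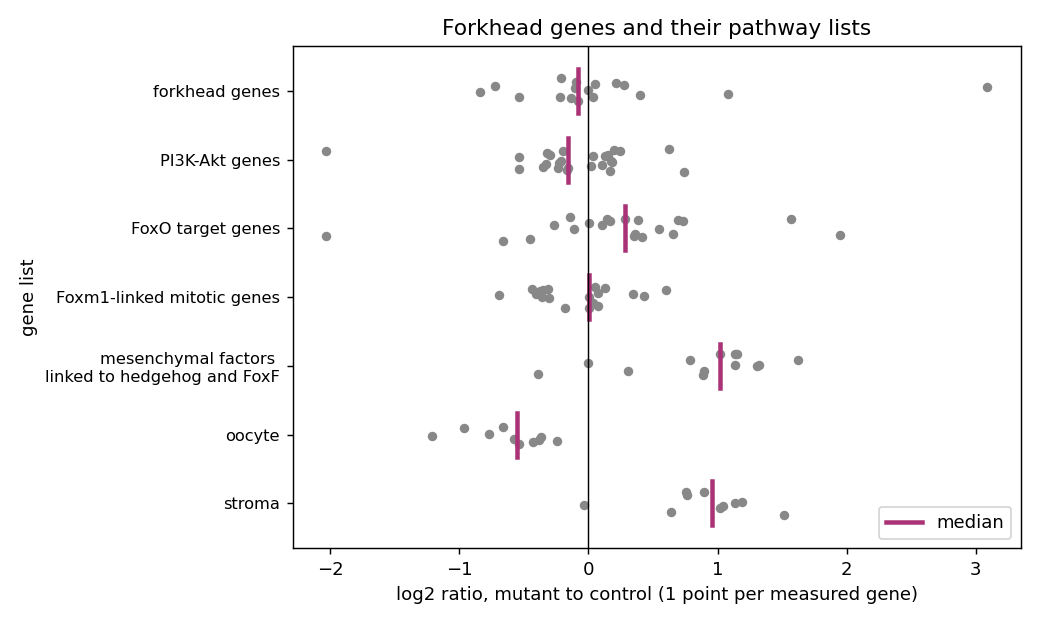
Log2 ratios of mutant to control for the measured genes of 7 lists, 1 point per gene at its brightest probe set, with a bar at each median. The forkhead genes centre at -0.084 with Foxf1 and Foxc1 apart on the right, the mesenchymal factors at 1.02, the stromal markers at 0.96 and the oocyte markers at -0.56. Lists overlap: the mesenchymal and stromal lists share Pdgfra and Tcf21.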

How the data were processed

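The authors deposited 1 column of linear signal intensities per array, made with GCOS per the submitters' processing notes. After trimming 2% of probe sets at each end, the mean was 500.003 on both arrays. The step that set this scale is not given in the sources used here. No detection calls entered. Signals were used as deposited. Symbols are those of the platform annotation, and all 36 members matched RefSeq GRCm38.p6 by Entrez gene ID. Left out were 2 probe sets listed for a member together with other genes.

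The signal minimum of 80.7 is the median of all values, and the pseudocount of 22.2 their 25th percentile. A fold with 1 value under the minimum is a bound, the other value over 80.7. Python 3.11.15 and pandas 2.3.3 were used, and the computation was tested on simulated data. All measured members are named, with up to 4 genes of each pathway list by absolute log2 ratio, and other genes were named after their values were seen. The members and lists were chosen with earlier results of these data known. The number of arrays limits the precision. The planned comparison of proteins was not run.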

Additional observations from a re-analysis of the deposited data

How the results depend on the processing

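The 10 alternative settings changed the pseudocount, the signal minimum, the scaling and the probe set that stands for a gene. Of 160 log2 ratios of single members, 158 moved by less than the probe-set SD and 0 of those at 1.5-fold changed sign. The exceptions were Foxf1 with the median as pseudocount (2.44) and Foxs1 without a pseudocount (-0.066). Part of this agreement was fixed in advance. A change of the signal minimum alone left the ratio of each member still measured as it was. Centring shifted all members by the same amount. The mean over probe sets cannot change a member with 1 measured probe set. The count of 158 thus overstates how far the ratios were put to a check. Over the settings that measured them, Foxf1 ranged from 2.44 to 3.19, Foxc1 from 0.80 to 1.25 and Foxj2 from -0.85 to -0.79. Foxo3 had a log2 ratio of -0.59 with quantile normalization, past 1.5-fold, but -0.36 with the mean over probe sets and -0.17 without probe sets of suffix s, x or a. Of the members within 1.5-fold, 4 changed sign under at least 1 setting: Foxj3 (-0.15 to 0.11), Foxk2 (-0.076 to 0.26), Foxn2 (-0.039 to 0.037) and Foxp4 (-0.30 to 0.092). Foxf1 was no longer measured where both values had to reach the minimum, and Foxc1 where the minimum was the 75th percentile.

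With the pseudocount at the median, 2 of 17 measured members were at least 1.5-fold higher and 1 that much lower, against 6.67% and 4.96% of all measured genes. Without a pseudocount the counts were also 2 and 1 of 17, against 8.78% and 7.65%. With the minimum at the 75th percentile they were 1 higher and 1 lower of 10 measured members, against 7.07% and 5.71% of all genes. With both values at the minimum they were 1 higher and 1 lower of 14, against 7.18% and 6.40%. With no minimum they were 5 higher and 4 lower of 36, against 11.0% and 10.2% of all 18193 genes. These counts rose with the number of genes that entered. At 2-fold, 1 gene was higher with the pseudocount at the median, with the minimum at the 75th percentile and with both values at the minimum. With no minimum 4 were higher and 1 was lower. The shares of all genes at 2-fold were not computed for these settings. With no minimum the median of the forkhead genes was 0.10, as it then holds 19 dim genes.

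The median of the mesenchymal factors was 0.83 with the pseudocount at the median, 0.90 without a pseudocount, 0.89 with no minimum and 0.86 with the mean over probe sets. The PI3K-Akt median was -0.069 with the minimum at the 75th percentile, -0.069 with both values at the minimum, -0.060 with the mean over probe sets and 0.034 without probe sets of suffix s, x or a. That of the FoxO targets was 0.16 with no minimum and 0.17 with the mean over probe sets, and that of the mitotic genes -0.18 with the minimum at the 75th percentile and -0.16 with the mean over probe sets. Apart from the fewer or more genes measured, the cause was not tested. No paired analysis was possible because each group held 1 array. Dim signals limit the mesenchymal members: Foxc2 and Foxs1 lay at the signal minimum. No replicate could be left out with 1 array per group.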
